A study of Bos taurus with 12 samples.

Results

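The miR-181 family in bovine plasma extracellular vesicles (EVs) consisted of 4 entries, bta-miR-181a, bta-miR-181b, bta-miR-181c and bta-miR-181d, among the 783 mature bovine miRNAs of the deposited table. The members were taken by name, and the family was picked on its measured values, namely an opposite change between the cycles in high and low responding heifers. Any value of that change is therefore given as a description, without a test. Of the 4 members, 3 had at least 1 read in any library, compared with 336 of the 783 entries.

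Plasma was collected from Charolais- and Limousin-cross beef heifers, aged from just under 2 to under 3 years, on Day 7 of a synchronized, unstimulated (U) cycle and again on Day 7 of the superstimulated (S) cycle that followed. Between both samplings, from Day 10 of the first cycle, the heifers received follicle-stimulating hormone (FSH), the hormone that drives growth of ovarian follicles, in decreasing doses 2 times per day for 4 days. Prostaglandin was injected during the FSH course, and artificial insemination after it preceded the ovulation that opened the S cycle. The 3 high (H) and 3 low (L) responders were selected from a larger group by their number of corpora lutea after stimulation, so H and L describe the same heifers in both cycles. The 4 groups, named UL and SL for the L heifers and UH and SH for the H heifers, had 3 libraries each, and libraries from the same heifer were matched by their shared number. All heifers were synchronized with a progesterone device. The S cycle always came second and was the only one with insemination, so the effects of FSH, time and insemination cannot be told apart. Nor can fewer vesicles from a cell type be told apart from less miRNA per vesicle in bulk plasma.

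MiRNAs are short RNAs that guide the silencing machinery to mRNAs, mainly through the seed near their 5′ end, and miRNAs with the same seed are placed in a family because they can recognise overlapping sets of targets. The miR-181 family is known from lymphoid cells, where miR-181a tunes the sensitivity of the T cell receptor in developing thymocytes, and its members are also found in brain, muscle, endothelium and ovary. In mammals the genes lie in pairs. In the RefSeq annotation of the bovine assembly ARS-UCD2.0, MIR181A-2 and MIR181B-2 were neighbours overlapping NR6A1, which encodes an orphan nuclear receptor. The MIR181A-1 and MIR181B-1 genes were neighbours as well, with PTPRC, which encodes the leukocyte surface phosphatase CD45, as the nearest protein-coding gene. The third pair, MIR181C and MIR181D, overlapped NANOS3, a gene of germ cell maintenance. As mature miR-181a and miR-181b can each be cut from either of their pairs, their reads could not be assigned to one of them.

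The mature sequences of the deposited table are shown because the single-base differences between members decide which of them a perfectly matching read can count for. They are written 5′ to 3′ with the seed, bases 2 to 8, in capitals.
bta-miR-181a: aACATTCAacgctgtcggtgagtt
bta-miR-181b: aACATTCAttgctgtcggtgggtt
bta-miR-181c: aACATTCAacctgtcggtgagttt
bta-miR-181d: aACATTCAttgttgtcggtgggt
All 4 members shared their seed with each other and with no other entry of the table. With positions counted from 1 at the 5′ end, miR-181b differed from miR-181a over 24 bases by the substitutions A9T, C10T and A21G. The shorter miR-181d differed from miR-181b by C12T alone over the 23 bases compared. Removing the G at position 11 of miR-181a gave the first 23 bases of miR-181c. Over the bases compared, miR-181b was thus closer to miR-181d, from another gene pair, than to miR-181a, from its own.

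The libraries held 21466 (SH2) to 77433 (SH3) reads of known miRNAs, with a median of 41190, and 169 to 221 miRNAs with a read. Leukocyte, erythroid and endothelial miRNAs were present in all groups. The ratio of miR-451 to miR-23a reads, a measure of lysed red blood cells, lay between 0.0854 (UH2) and 0.639 (SH1). For comparisons, reads were scaled to the mean depth with trimmed mean of M values (TMM) factors and are called normalised reads. By this scale 3 reads corresponded to 1.81 normalised reads in SH3 and to 6.03 in SH2.

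Within EVs the family was a minor component and consisted almost entirely of miR-181a and miR-181b. Together the members accounted for 0.0426 to 0.190% of the known miRNA reads of a library, with a median of 0.0802%. MiR-181a was found in all 12 libraries with 351 reads in total, or 657 per 1000000 known miRNA reads, and ranked between 51 and 95 by abundance. MiR-181b had 78 reads, or 146 per 1000000, and ranked between 70 and 144. MiR-181c had 0 of 534136 reads, with an exact Poisson 95% interval that ends at 6.91 per 1000000, where 3 reads would be 5.62. MiR-181d had 3 reads, 1 in UL2 and 2 in UH2, which is 5.62 per 1000000 with an exact Poisson 95% interval of 1.16 to 16.4. This and all further read intervals cover counting error only.

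In the L heifers (L1 to L3), the reads of miR-181a were 22, 44 and 13 in the U cycle (UL) and 26, 46 and 42 in the S cycle (SL). In the H heifers (H1 to H3), they were 20, 55 and 28 in UH and 16, 13 and 26 in SH. After scaling, the normalised reads of L1 to L3 were 20.3, 39.7 and 12.8 in UL and 31.9, 45.3 and 64.9 in SL, and those of H1 to H3 were 29.4, 39.1 and 21.1 in UH and 21.5, 26.1 and 15.7 in SH. All SL libraries were above all SH libraries, whereas the UL and UH libraries overlapped with each other and with both S groups. The mean ± SD (n = 3) was 47.4 ± 16.6 in SL, 29.8 ± 9.05 in UH, 24.3 ± 13.9 in UL and 21.1 ± 5.24 in SH. No neighbours in this order were separated beyond the spread of their libraries.

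MiR-181b, at a lower level, was counted with 6, 3 and 7 reads in UL, 5, 8 and 14 in SL, 6, 7 and 11 in UH and 3, 1 and 7 in SH, in the order of the heifer numbers. Its normalised reads were 5.53, 2.71 and 6.92 in UL, 6.14, 7.88 and 21.6 in SL, 8.81, 4.98 and 8.27 in UH and 4.03, 2.01 and 4.22 in SH. SH was the lowest group, with every library below every UH and every SL library, and SL3 was far above the other libraries. The means stood in the same order as for miR-181a, with 11.9 ± 8.49 in SL, 7.35 ± 2.07 in UH, 5.05 ± 2.14 in UL and 3.42 ± 1.22 in SH (SD, n = 3), and neighbours overlapped here too. With mapped reads as library sizes, SH moved above UL for miR-181a. The order of miR-181b stayed the same with that scaling, but its SH and SL libraries then overlapped.

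**Figure D1:**
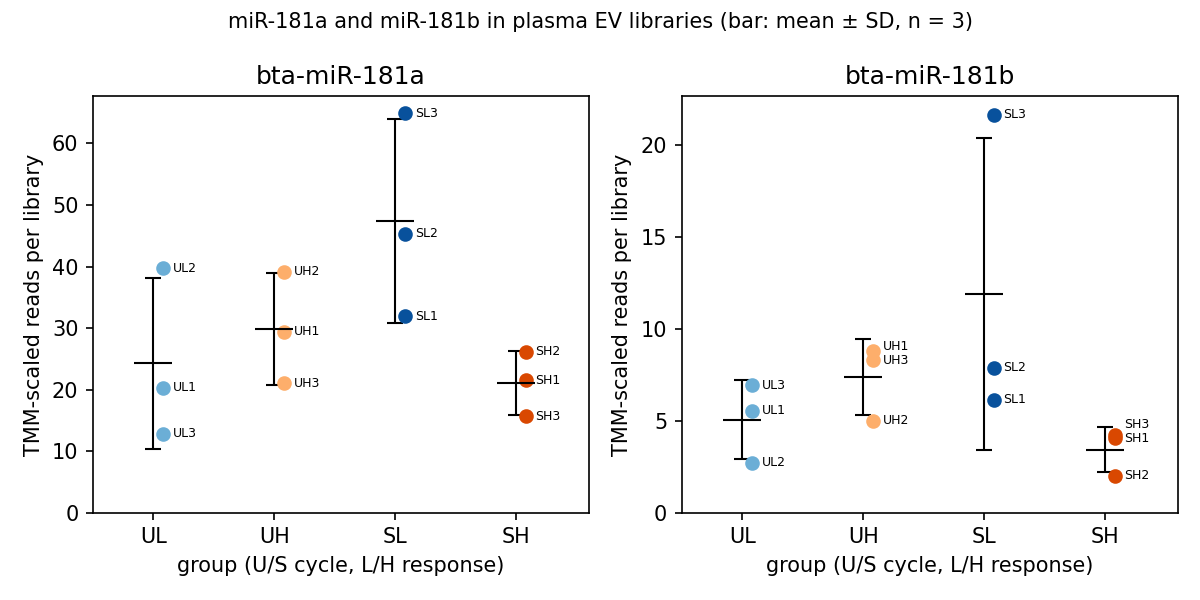
Normalised reads (TMM-scaled reads per library, linear axis from 0) of miR-181a and miR-181b in each library of UL, UH, SL and SH, with bars for the mean ± SD (n = 3). For miR-181a the SL libraries (31.9 to 64.9) lie above the SH libraries (15.7 to 26.1), and for miR-181b SL3 (21.6) stands above all other libraries.

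Summed over the libraries of a group, miR-181a reached 1085 reads per 1000000 known miRNA reads in SL (114 reads, exact Poisson 95% interval 94.0 to 137 reads) and 399.7 in SH (55 reads, 41.4 to 71.6). The sums in the U cycle lay between these, with 658 per 1000000 in UH (103 reads, 84.1 to 125) and 586 in UL (79 reads, 62.5 to 98.5). MiR-181b showed 257 per 1000000 in SL (27 reads, 17.8 to 39.3), 153 in UH (24 reads, 15.4 to 35.7), 119 in UL (16 reads, 9.15 to 26.0) and 79.9 in SH (11 reads, 5.49 to 19.7). Per 1000000 known miRNA reads, the intervals of SL and SH were 895 to 1304 and 301 to 520.3 for miR-181a. For miR-181b, they were 169 to 374 and 39.9 to 143, and 14 of the 27 reads in SL came from SL3. Intervals of pooled reads leave out the spread between heifers. As the family was picked for its change between cycles, nothing is read from the distance between SL and SH.

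The change between the cycles, which was the basis for choosing the family, had one direction in the H heifers and the other in the L heifers. For miR-181a, the log2 change from the U to the S cycle was -0.43, -0.57 and -0.40 in H1, H2 and H3, and 0.63, 0.19 and 2.25 in L1, L2 and L3. For miR-181b, it was -0.96, -0.99 and -0.83 in the H heifers and 0.13, 1.26 and 1.52 in the L heifers. The H heifers were close to each other for both members, and the L heifers were not. These directions were the same for all 6 heifers with median-of-ratios size factors, plain library sizes and mapped reads. They rest on the assumption that equal library numbers name the same heifer. Of the 238 miRNAs tested, 4 (1.68%) were lower in S in all 3 H heifers and higher in S in all 3 L heifers. Besides miR-181a and miR-181b these were miR-17-5p, the leading member of a cluster known from proliferating cells, and miR-139, both named after their values were seen. As the family was chosen for this pattern, nothing is read from that count.

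**Figure D2:**
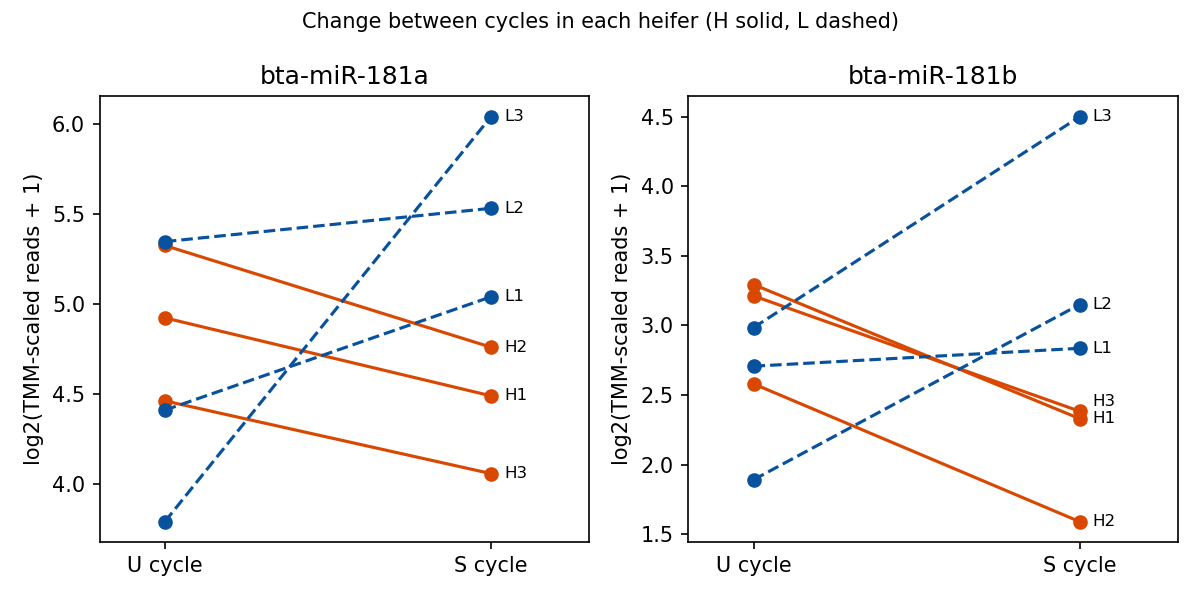
Levels of miR-181a and miR-181b as log2(TMM-scaled reads + 1) in the U and the S cycle of each heifer, joined by a solid line for H and a dashed line for L heifers. All 6 H lines fall and all 6 L lines rise, with the steepest miR-181a line in L3 (2.25) and the flattest in L2 (0.19).

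Most of these single changes lay within the counting error of their reads, which is given as a description and not as a test. The S to U ratio of normalised miR-181a reads was 0.732 (95% interval 0.355 to 1.49) in H1, 0.668 (0.335 to 1.24) in H2 and 0.744 (0.419 to 1.32) in H3. It was 1.57 (0.858 to 2.91) in L1, 1.14 (0.738 to 1.77) in L2 and 5.05 (2.66 to 10.3) in L3. The intervals of all heifers but L3 contained a ratio of 1. For miR-181b, the ratios were 0.457 (0.074 to 2.14), 0.403 (0.009 to 3.14) and 0.510 (0.168 to 1.44) in H1 to H3. They were 1.11 (0.268 to 4.37), 2.91 (0.698 to 17.0) and 3.13 (1.18 to 9.16) in L1 to L3, and again all intervals but that of L3 contained 1. As the family was picked for this change and the intervals cover counting error only, nothing is read from L3. With so few reads, a change of the size seen in the H heifers was not detectable within one heifer.

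On group level, miR-181a differed by a log2 value of 1.02 (SE 0.47) between SL and UL and by -0.47 (SE 0.47) between SH and UH. The SE of differences between groups pool the spread of all groups and ignore which libraries share a heifer. The latter was -0.25 without UH2 and -0.28 without SH3, and the former 0.62 without UL3. The corresponding values of miR-181b were 0.97 (SE 0.71) and -0.93 (SE 0.71), and its SL vs. UL difference was 0.47 without SL3. All of them kept their direction when any single library was left out. The median over the 238 miRNAs was -0.06 for SL vs. UL and -0.13 for SH vs. UH. Ordered from the highest SL vs. UL difference, miR-181a was number 11 and miR-181b number 14. The H change minus the L change was -1.49 (SE 0.67) for miR-181a and -1.90 (SE 1.01) for miR-181b, which placed them at 18 and 7 from the lowest of 238. Group means that fell in H and rose in L were found for 44 of the 238 miRNAs (18.5%), and the 2 members were among them by choice. When both libraries of heifer L3 were left out, the SL vs. UL difference of miR-181a was 0.39 (SE 0.59) and its H minus L change was -0.83 (SE 0.76), while the latter was -1.61 (SE 1.14) for miR-181b.

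**Figure D3:**
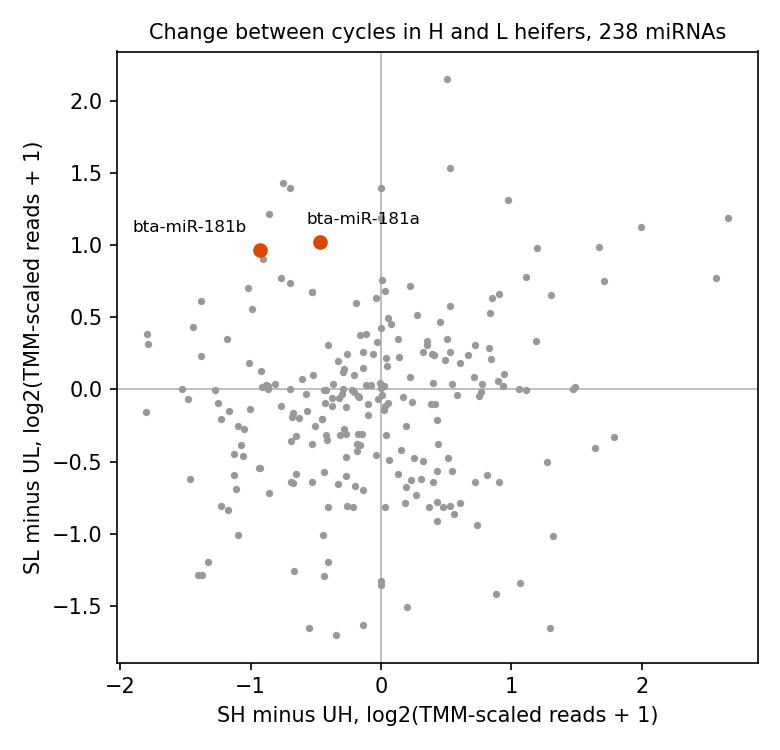
Log2 difference of normalised reads between the cycles in H heifers (SH minus UH, horizontal) and in L heifers (SL minus UL, vertical) for the 238 miRNAs tested, each a grey point, with miR-181a and miR-181b in red. Both lie in the upper left quadrant, as did 44 miRNAs in all, at -0.47 and 1.02 (miR-181a) and at -0.93 and 0.97 (miR-181b).

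Between responders, the H mean was below the L mean in the S cycle and above it in the U cycle, for both members. SH was below SL by a log2 difference of -1.10 (SE 0.47) for miR-181a and -1.39 (SE 0.71) for miR-181b, at 25 and 9 from the lowest of 238, and the miR-181b value was -0.90 without SL3. In the U cycle, the UH vs. UL difference was 0.39 (SE 0.47) for miR-181a and 0.50 (SE 0.71) for miR-181b, both with overlapping libraries. The miR-181a value was -0.06 without UL3, 0.12 without UH2 and 0.80 without UL2, and the miR-181b value was 0.18 without UL2. Both members were lower in every SH than in every SL library, a separation found for 10 of 238 miRNAs (4.20%). Every SH library was below every UH library for miR-181b but not for miR-181a, and 12 miRNAs (5.04%) showed this. Neither member had all UL below all SL libraries, which 8 miRNAs (3.36%) had. SH vs. UH and SL vs. UL are the changes by which the family was chosen. SH vs. SL and UH vs. UL each contain part of the difference between these changes. No conclusion is therefore drawn from their opposite signs. The counts are therefore given beside their background only.

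The average over both cycles of a heifer does not enter the change between cycles by which the family was picked, and H vs. L was tested on it. In this average, the H heifers did not differ detectably from the L heifers in either member. The log2 values of miR-181a per heifer, as means of both cycles, were 4.71, 5.04 and 4.26 in H1 to H3 and 4.73, 5.44 and 4.92 in L1 to L3. The H minus L difference was -0.36 (SE 0.36, 95% interval -1.12 to 0.41, limma adjusted p = 0.813). It lay between -0.61 (without UH2) and -0.15 (without SL2 or UL2) when single libraries were left out. Leaving out a library dropped its whole heifer from this comparison, so that without SL3 and without UL3 both mean without heifer L3. For miR-181b, the heifer means were 2.81, 2.08 and 2.80 in H and 2.77, 2.52 and 3.74 in L, again overlapping. Its difference was -0.45 (SE 0.58, 95% interval -1.68 to 0.78, limma adjusted p = 0.827), with -0.08 without SL3, -0.14 without UL3 and -0.69 without SL2. A log2 difference of at least 1 with an unadjusted p of at most 0.05, which was the rule for a call, was met by 6 of 238 miRNAs (2.52%), 0 of them with an adjusted p under 0.05 in limma, where 9 had an unadjusted p of at most 0.05. Of the tested members of the family, 0 of 2 were called, and both intervals still contain log2 differences below -1.

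The S minus U difference averaged over H and L is the mean of the changes that had to be opposite for the family to be chosen, and it is therefore given without a test. It was 0.28 (SE 0.34) for miR-181a and 0.02 (SE 0.50) for miR-181b. With both libraries of heifer L3 left out, the differences were -0.03 and -0.12. By the same rule for a call, 11 of 238 miRNAs (4.62%) were called in this comparison, 0 with a limma adjusted p under 0.05 and 17 with an unadjusted p of at most 0.05. Nothing is read from the position of the members relative to this share.

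The proportion of miR-181a and miR-181b was similar in the pooled reads of the 4 groups. MiR-181a exceeded miR-181b in 12 of 12 libraries, by a ratio of reads of 1.86 (UL3) to 14.7 (UL2). MiR-181b made up 16.8% of the reads of both in UL (exact binomial 95% interval 9.94 to 25.9%), 19.1% in SL (13.0 to 26.6%), 18.9% in UH (12.5 to 26.8%) and 16.7% in SH (8.62 to 27.9%). All 4 intervals contained the pooled share of 18.2% (78 of 429 reads, 14.6 to 22.2%), which includes the reads of each group. These intervals do not cover the spread between heifers. A shift of several percentage points between groups would not be detectable with these reads. Per library, the share ranged from 6.38% in UL2 to 35% in UL3, and 11 of the 12 intervals contained the pooled share. The exception was UL2 (3 of 47 reads, 1.34 to 17.5%).

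**Figure D4:**
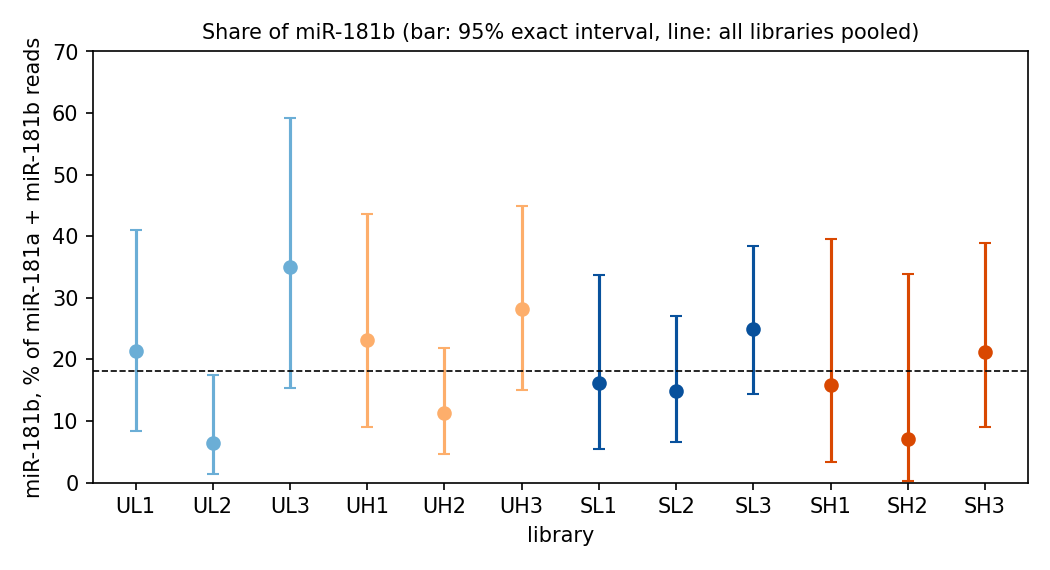
MiR-181b as a percentage of miR-181a and miR-181b reads in each library (points), with exact binomial 95% intervals (bars) and the share over all libraries (dashed line, 18.2%). The bars overlap widely between the groups, and only that of UL2 lies below the line.

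The gene pair of miR-181c and miR-181d was nearly absent. Both together had 3 of the 432 reads of the family, or 0.694% (exact binomial 95% interval 0.143 to 2.02%), and no read in SL or SH. In these groups, 3 reads would be shares of 2.13 and 4.55%. The exact binomial 95% intervals of 0 of 141 and 0 of 66 family reads end at 2.58 and 5.44%. Neither member reached 1 read in 2 libraries of a group, so neither was tested, and whether they changed with the cycle or the response was not detectable at this depth.

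Over the 12 libraries, the levels of miR-181b and miR-181a had a Pearson r of 0.38 and a Spearman rho of 0.20, and without SL3 r was -0.06. After removing the group means r was -0.22 and rho -0.16, and r moved to -0.80 without SL3 and to 0.13 without UL2. Neither correlation thus had a direction that held without each single library. MiR-181b had fewer than 10 reads in 10 of the 12 libraries, with a mean of 6.5, so these correlations rest on few reads.

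Among the 106 miRNAs that averaged 10 or more reads per library, those with levels most like miR-181a were miR-139 (r 0.65, rho 0.77), miR-155 (r 0.57, rho 0.50), miR-150 (r 0.56, rho 0.59), miR-342 (r 0.54, rho 0.45) and miR-26a (r 0.54, rho 0.50). Of these, miR-150 and miR-155 are known from lymphocytes, and miR-342 is used as a leukocyte marker. The leukocyte miRNAs miR-142-5p, miR-142-3p, miR-146a, miR-146b and miR-223, followed further below, were not among these most similar miRNAs. The mean normalised reads of miR-139 were 10.8 in SH, 23.7 in UL, 32.1 in SL and 35.9 in UH. SH was thus lowest as for miR-181a, but UH and not SL was highest. Those of miR-150 were 1039 in SH, 1196 in UL, 1814.5 in SL and 1149 in UH. Here SL was highest and SH lowest as for miR-181a, but UL was above UH. Within groups, the deviations of miR-181a were most like those of miR-155 (r 0.69, rho 0.70), miR-125a (r 0.62, rho 0.66), miR-10a (r 0.62, rho 0.66), let-7a-5p (r 0.60, rho 0.71) and let-7b (r 0.59, rho 0.55). Of the leukocyte miRNAs, only miR-155 was among these. All r are descriptions over 12 libraries of 6 heifers that share their depth and scaling between miRNAs. The r of levels also contain the group pattern for which the family was picked. MiR-139 had the picked change in all 6 heifers. No conclusion is therefore drawn from the ranking by levels.

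As vesicles in plasma come from many cells, miRNAs of possible sources were followed beside the family. The summed normalised reads of 8 leukocyte miRNAs (miR-150, miR-155, miR-142-5p, miR-142-3p, miR-146a, miR-146b, miR-223 and miR-342) ranged from 2784 to 3129 in UL, from 3679 to 5114 in SL, from 2549 to 4402 in UH and from 2777 to 4039 in SH. In the L heifers, all S sums were thus above all U sums, whereas the UH and SH ranges overlapped. Neither miR-181a nor miR-181b had this separation, and 8 of the 238 single miRNAs (3.36%) did. The largest parts of the sums were miR-150, miR-342 and miR-223, with means of 1196, 868 and 478 in UL and 1814.5, 1152 and 752 in SL. Individually, miR-150 (0.59 and -0.19) and miR-342 (0.39 and -0.12) had a positive log2 difference for SL vs. UL and a negative one for SH vs. UH. For miR-155 both were near 0 (0.05 and -0.01). In miR-142-5p (0.52 and 0.28), miR-142-3p (0.23 and 0.14) and miR-223 (0.68 and 0.03) both were positive. The signs were the opposite in miR-146a (-0.10 and 0.42) and miR-146b (-0.06 and 0.17). Thus 3 of the 8, miR-155 barely so, had an H change below and an L change above 0, against 18.5% of the 238 miRNAs. The median over the list was 0.31 for SL vs. UL and 0.08 for SH vs. UH. None of the 8 was called in limma for H vs. L or for S vs. U, against 2.52% and 4.62% of the 238 miRNAs. The part of leukocyte vesicles in the values of the family was not tested.

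Erythroid miRNAs (miR-451, miR-486 and miR-144) summed to 1189 to 2622 normalised reads in UL, 982 to 2261 in SL, 1121 to 2756 in UH and 1758 to 8362 in SH, which was wide in the group where miR-181a was lowest. Of the 3, 0 were called, and 0 had an H change below and an L change above 0, which 18.5% of the 238 miRNAs had. Over all 238, the shares called were 2.52% for H vs. L and 4.62% for S vs. U. Nothing is read from counts of 0 in lists this short. The endothelial miR-126 arms summed to 4059 to 7001 in UL, 3523 to 6413 in SL, 4656 to 11879.5 in UH and 1686 to 7665 in SH, with 0 of 2 called. The liver miRNA miR-122 ranged from 74.7 to 266 in UL, 52.5 to 193 in SL, 91.0 to 641 in UH and 48.2 to 327 in SH and was not called. Muscle miRNAs summed to 74.0 to 1717 in UL, 83.7 to 166 in SL, 39.1 to 145 in UH and 59.6 to 165 in SH. Of the 7 muscle miRNAs, 5 were tested, 1 was at 0 in all libraries, and miR-206, a miRNA of skeletal muscle, was called lower in H (log2 difference -2.29, limma adjusted p = 0.244). The part of these sources in the values of miR-181a and miR-181b was not tested.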

How the data were processed

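Small RNA was isolated from plasma EVs of 3 H and 3 L heifers in both cycles (12 libraries). Per the labels and methods, the authors used Cutadapt to trim and UMI-collapse the reads, Bowtie2 2.2.2 to map to UMD3.1 and miRBase to annotate perfect matches. The deposited values are a score made by the authors, each miRNA's reads per 1000000 mapped reads with the decimals cut off. The authors themselves used edgeR with TMM factors. The values of each library were multiples of a step of 4.48 to 7.93 per read with the decimals cut off, and dividing by it gave whole reads that reproduced 100% of the values. All columns were used. As UMI-collapsed reads stand for molecules, intervals (exact Poisson or Clopper-Pearson, 95%) cover counting error only.

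Reads were scaled with TMM factors, written from the published description, to the mean depth. The 238 miRNAs with a read in 2 or more of the 3 libraries of any group entered limma 3.58.1 (R 4.3.3; lmFit, eBayes with a mean-variance trend, two-sided) on log2(normalised reads + 1), which understates differences of low miRNAs. A count test was not run. H vs. L was fitted to the mean of both cycles of each heifer, and S vs. U, which for the family is a description only, to 4 groups without a block. Adjustment was by Benjamini-Hochberg over all 238, and simulated data were used to test the code. Other miRNAs named are source lists and the 5 most like miR-181a by r, in levels and in deviations from group means. Members and lists were chosen with earlier results of these data known. Per the methods each heifer was sampled in both cycles, and equal library numbers were taken as the same heifer. Same-heifer deviations of 238 miRNAs had an r of 0.05, 0.21 and 0.13 (H1 to H3) and 0.10, 0.06 and -0.05 (L1 to L3). Genome coordinates of the RefSeq annotation were used only to find overlapping and neighbouring genes of the family. Tables and figures were made with Python 3.11.15, pandas 2.3.3, scipy 1.17.1 and matplotlib 3.10.9.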

Additional observations from a re-analysis of the deposited data

Results flagged for a closer look

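The change between cycles was downwards in each of the 3 H heifers and upwards in each of the 3 L heifers for miR-181a and miR-181b, and this is what drew attention to both. The H change minus the L change was -1.49 on the log2 scale for miR-181a and -1.90 for miR-181b. The difference was not tested, since the family was picked for it. Of the 238 miRNAs, 4 had this pattern in all 6 heifers.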

How the results depend on the processing

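MiR-181a and miR-181b were called for H vs. L under none of the alternatives run, with limma adjusted p of 0.396 to 0.999 and 0.763 to 0.993. Their differences were -0.61 to -0.15 and -0.69 to -0.08 with single libraries left out, which dropped the whole heifer. The S minus U difference of miR-181b (0.02) changed sign with library sizes without TMM (-0.020), with mapped reads as library sizes (-0.033) and over the leaving out of single libraries (-0.23 without SL3 to 0.18 without SL1). With both libraries of heifer L3 left out, an alternative chosen after seeing the data, the S minus U difference became -0.031 for miR-181a and -0.12 for miR-181b, the SL vs. UL difference of miR-181a became 0.39 and its H minus L change -0.83. Of single libraries, UL2 and UL3 moved the latter to -1.90 and -1.07, and SL1 and SL3 that of miR-181b to -2.23 and -1.40. Without UL3 and without UL2, SL vs. UL of miR-181a was 0.62 and 1.44. Calls for H vs. L (6) numbered 2 with a pseudocount of 2 reads, 1 with a minimum of 10 reads, and 6 (without UL1) to 17 (without UH2) with a library left out, which dropped its heifer, with 12 without UL2 or SL2 and 15 without SH2. Calls for S vs. U (11) numbered 4, 4 and 6 with that pseudocount, that minimum and mapped reads, and 6 (without UL1 or UH1) to 16 (without SL2) with a library left out. Median-of-ratios factors gave 8 higher and 4 lower calls for S vs. U, against 6 and 5. With mapped reads the median H minus L difference of all miRNAs was 0.10, against -0.03, a shift of that size applying to the family as well. With the heifer as replicate block, 10 miRNAs were called for S vs. U and miR-181a had the same difference of 0.28 (SE 0.32). Without the block, H vs. L over 12 libraries gave 6 calls and changed no call of the family. The cause of these shifts was not tested. Under the minimum of 10 reads miR-181b gave no value, miR-181c had no read, and miR-181d could be fitted only without a filter, with H minus L of 0.06 (SE 0.27) and S minus U of -0.37 (SE 0.25) on 3 reads. Depth limits all statements on miR-181b, at 1 to 14 reads per library.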
